A study of Mus musculus with 6 samples.

Results

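The IL-1 and IL-18 receptor genes are Il1r2, Il1r1, Il1rl2, Il1rl1, Il18r1 and Il18rap, which lie side by side on chromosome 1, and Il1rap, which lies alone on chromosome 16. These 7 genes, of 21887 protein-coding genes in the annotation used, were taken as a family by name, a choice made with earlier results of these data known. A listed region was given to a gene when its centre lay inside the gene's span or within 100 kb of it. By this rule 8 of the 6502 listed regions belonged to the family, and 6 of the 7 genes had at least 1, beside 42.7% of all protein-coding genes.

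The regions come from ATAC-seq, in which a transposase cuts accessible chromatin, on mouse prostate basal stem cells sorted as CD45-, CD31-, Sca-1+ and CD49f+. The inflamed group held 3 libraries, labelled POET3 in genotype, from prostates taken 7 days after transfer of pre-activated OT-1 splenocytes into mice whose prostate expresses ovalbumin. The naive group held 3 libraries, labelled WT in genotype and control in treatment. The labels' extraction protocol speaks of POET3 mice for both groups, and where the labels hold, inflammation and genotype cannot be told apart. Age and pooling of animals are not given in the sources used here. The only values were chromosome, start and end of each region, with no column for a library, a group or a direction. The name of the list and the tools named for it point to regions that differed between inflamed and naive libraries, but no source used here says which group had the higher accessibility at any of them. There is therefore no value per library, depth or replicate error for any gene below, no region is described as opened or closed, and no test between inflamed and naive libraries could be run. The cell type could not be checked from expression. Beside the 42.7% of all protein-coding genes that meet the 100 kb rule, of the basal marker genes Krt5, Krt14 and Trp63, 3 of 3 had a listed region inside or within 100 kb, as had 1 of 3 leukocyte marker genes (Ptprc, but not Cd3e or Itgam) and 2 of 2 endothelial ones (Pecam1 and Cdh5). A listed region does not show that a gene is expressed.

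Receptors of this family share an outer part of immunoglobulin domains and, except for the decoy, an inner TIR domain that recruits MyD88 and IRAK kinases and so leads to NF-kB. A ligand first binds its own receptor chain, and an accessory chain then joins to start the signal. IL-1 receptor type 1, encoded by Il1r1, binds IL-1 alpha and IL-1 beta. IL-1 receptor type 2, encoded by Il1r2, binds IL-1 but lacks the TIR domain and acts as a decoy. Il1rl2 encodes the IL-36 receptor, and Il1rl1 encodes ST2, the receptor for IL-33. These receptors use the accessory protein encoded by Il1rap, whereas IL-18 is bound by the product of Il18r1 and signals with the product of Il18rap. The series title names the IL-1 receptor antagonist, which competes with IL-1 for the type 1 receptor.

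None of the 8 regions reached a promoter window of the family. RefSeq lists 11 start sites for the 7 genes, all on the plus strand, and the window of each ran from 250 bases before the start to 50 bases after it. No listed region overlapped any of the 11 windows, and the closest centre was 5.34 kb from a start. Over all protein-coding genes, 615 of 21263 such windows (2.89%) overlapped a listed region, so none among 11 is a description only. Sequences of the regions themselves were not used here. The 250 bases before the start are shown for the 5 starts that held a match, before the start, to any searched pattern other than the short CTCF core, to show what the searched patterns look like in these promoters. They are given 5′ to 3′ on the plus strand of GRCm38.p6, from RefSeq, with the matches in capitals.
Il1r2, chr1:40085843-40086092: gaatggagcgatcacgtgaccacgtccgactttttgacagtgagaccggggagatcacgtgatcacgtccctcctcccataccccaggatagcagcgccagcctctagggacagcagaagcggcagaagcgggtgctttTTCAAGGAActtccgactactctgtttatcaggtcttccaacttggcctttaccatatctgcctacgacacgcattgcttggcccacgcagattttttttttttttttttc
Il1r1 downstream start, chr1:40266336-40266585: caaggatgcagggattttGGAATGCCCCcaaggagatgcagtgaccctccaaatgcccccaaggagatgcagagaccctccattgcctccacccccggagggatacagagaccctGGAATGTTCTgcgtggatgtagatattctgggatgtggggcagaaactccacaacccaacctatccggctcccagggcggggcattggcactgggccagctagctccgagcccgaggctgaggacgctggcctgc
Il1rl1 upstream start, chr1:40429320-40429569: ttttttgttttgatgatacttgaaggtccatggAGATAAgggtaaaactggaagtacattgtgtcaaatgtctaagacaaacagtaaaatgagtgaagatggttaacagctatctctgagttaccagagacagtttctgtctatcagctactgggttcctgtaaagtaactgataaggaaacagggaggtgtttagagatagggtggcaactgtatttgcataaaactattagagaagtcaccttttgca
Il1rl1 downstream start, chr1:40439379-40439628: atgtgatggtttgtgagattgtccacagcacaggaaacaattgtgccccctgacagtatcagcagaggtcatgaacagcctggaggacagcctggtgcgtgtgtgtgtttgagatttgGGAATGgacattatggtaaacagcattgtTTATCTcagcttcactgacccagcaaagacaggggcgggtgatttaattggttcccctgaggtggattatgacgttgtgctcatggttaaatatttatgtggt
Il18r1 last start, chr1:40465756-40466005: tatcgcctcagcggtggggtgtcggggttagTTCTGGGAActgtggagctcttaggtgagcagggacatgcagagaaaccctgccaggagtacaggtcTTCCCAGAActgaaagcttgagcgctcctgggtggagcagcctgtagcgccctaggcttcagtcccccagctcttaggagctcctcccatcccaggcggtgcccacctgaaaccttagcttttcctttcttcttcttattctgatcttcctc

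The downstream promoter of Il1r1 held the family's match to the NF-kB pattern, GGG and TTCC with any 3 bases between them, read here on the opposite strand. It also held the family's match to AGAACA, the hexamer to which a single androgen or glucocorticoid receptor molecule binds, again on the opposite strand. Each of these matches overlapped a match to the TEAD pattern GGAATG. The NF-kB pattern was present in 5.76% of the 21263 windows and the AGAACA hexamer in 16.2%, so 1 of 11 windows for each is a description only. The STAT pattern TTCNNNGAA was found in 2 of 11 windows, that of Il1r2 and, at 2 positions, that of the last Il18r1 start, beside 7.69% of all windows. The GATA pattern AGATAA was found in both Il1rl1 windows and in no other of the 11, beside 9.65% of all windows. TEAD matches lay in 2 of 11 windows, beside 13.6%. RUNX matches (TGTGGTT) also lay in 2 of 11, at Il18rap and Il18r1 just after the start, beside 4.71%. The CTCF core CCCTC was in 7 of 11 windows and in 69.6% of all. Windows of the first 2 Il18r1 starts overlap and hold the same CCCTC, which was counted for each. AP-1 (TGANTCA), ETS (CCGGAAGT) and C/EBP (TTGCGCAA) patterns had no match in the 11 windows, and were present in 6.99%, 5.15% and 0.221% of all. Both strands were searched throughout. A match is a run of letters and not evidence of binding, and a pattern without a match says only that these letters were not in the windows.

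**Figure D1:**
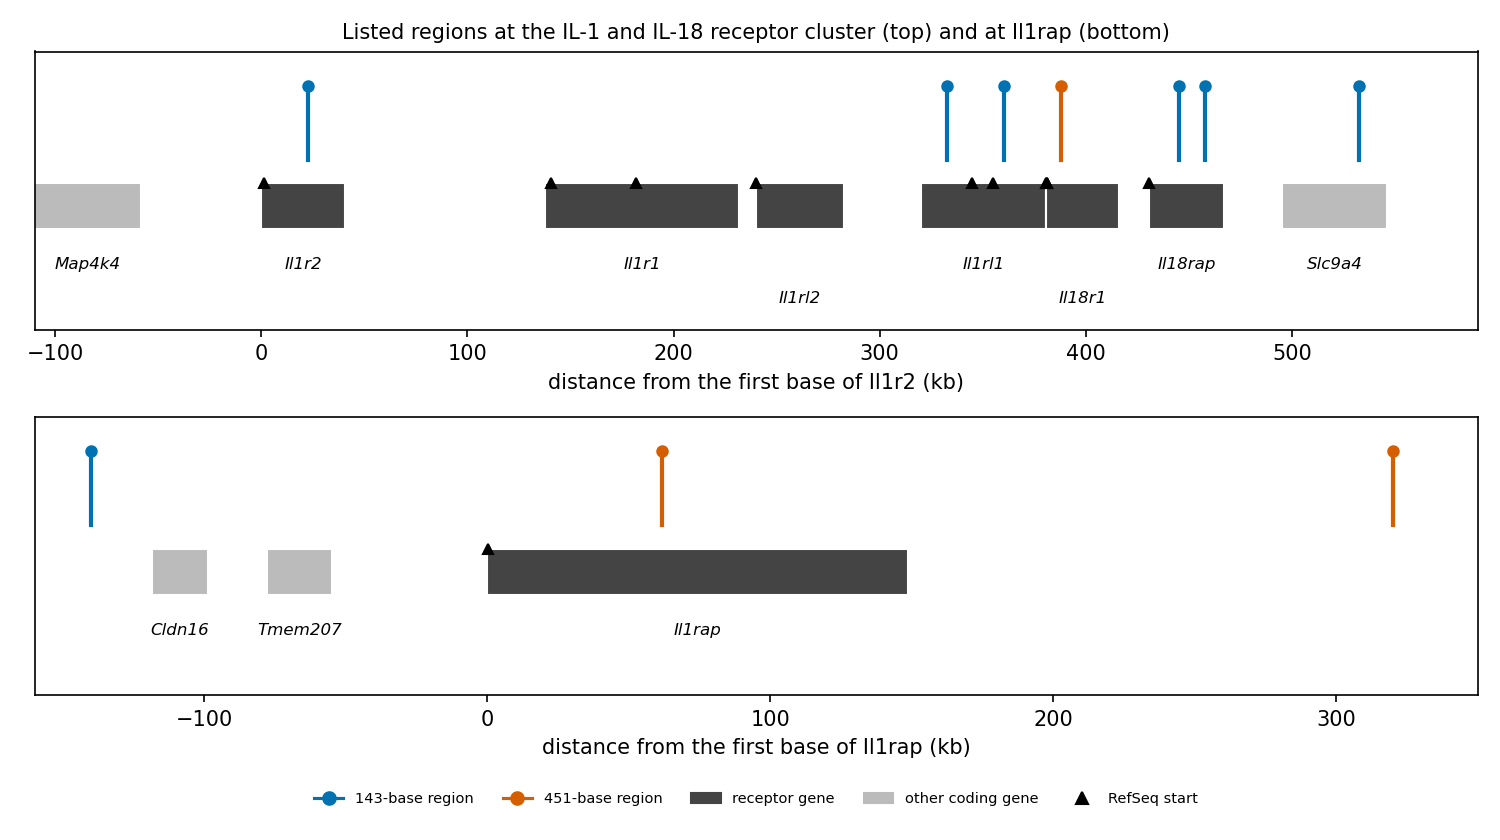
Listed regions (vertical marks, coloured by width) and protein-coding gene spans (bars) against the distance in kb from the first base of Il1r2 on chromosome 1 (top) and of Il1rap on chromosome 16 (bottom); triangles are RefSeq starts, of which the 3 of Il18r1 overlap. Of the 6 regions inside the cluster, 1 lies in Il1r2 and 5 lie from Il1rl1 to Il18rap, with a stretch of 310 kb without a region in between, and Il1rap holds 1 region.

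Il1r1, which encodes the signalling receptor for IL-1, was the only member with no region by the 100 kb rule. It is NCBI gene 16177 and runs for 93.7 kb, at 40222480 to 40316201 on chromosome 1. Its nearest region was centred 101 kb past the end of its span, inside Il1rl1, and the nearest on the other side lay 115 kb before its start, inside Il1r2. From its RefSeq starts the nearest regions were 118 and 151 kb away. Il1r1 thus fell just outside the limit, whereas the pair just inside it was Il18rap and a region 98.1 kb away, and the next outside was Il1rl2 and a region 105 kb away. The nearest region was farther than that of Il1r1 for 57.1% of protein-coding genes, for which the median distance was 136 kb. Among the 4134 protein-coding genes with a span between 0.5 and 2 times that of Il1r1, 55.3% had a region by the 100 kb rule.

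Il1r2, which encodes the decoy receptor, had a single 143-base region and no other within 100 kb. It is NCBI gene 16178 and covers 40.5 kb of chromosome 1, at 40084692 to 40125230. The region, at 40107226 to 40107368, lay 55.8% of the way along the span and 21.2 kb downstream of the RefSeq start. It was isolated, with the next listed regions 482 kb before it and 310 kb after it. Of the 6869 genes with a span between 0.5 and 2 times that of Il1r2, 11.8% had a region inside.

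Between the region of Il1r2 and the first region of Il1rl1 there was a stretch of 310 kb with no listed region, from 40107369 to 40417233. It covers all of Il1r1 and Il1rl2. Such a distance was not unusual in the list: of the 6481 distances between adjacent centres on a chromosome, 32.2% were longer, and the median was 156 kb. Il1rl2, the IL-36 receptor gene (NCBI gene 107527, 40324589 to 40367555, 43.0 kb), held no region. It had 2 within 100 kb, at 49.8 and 77.4 kb past its end, and both lay inside Il1rl1. No region was therefore nearest to Il1rl2 or to Il1r1. Of the 6701 genes of like span to Il1rl2, 12.3% had a region inside and 48.4% had one by the 100 kb rule.

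Il1rl1, which encodes the IL-33 receptor ST2, held 2 regions of 143 bases. Its span of 60.6 kb (NCBI gene 17082) is annotated at 40404864 to 40465418. The first region, at 40417234 to 40417376, lay 20.5% along the span, yet 12.3 kb upstream of the first of the gene's RefSeq starts in the promoter table, at 40429570, since the annotated span begins 24.7 kb before that start. The other, at 40444896 to 40445038, lay 66.2% along the span and 5.34 kb downstream of the second start, at 40439629, the shortest distance from a region to a start in the family. The regions therefore flank both starts, the pair of promoters shown above. Mouse Il1rl1 is known to be transcribed from a distal and a proximal promoter. Of the 5560 genes with a span between 0.5 and 2 times that of Il1rl1, 16.4% had a region inside and 2.90% had 2 or more.

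Il18r1, the gene of the ligand-binding chain of the IL-18 receptor, held the only 451-base region of the chromosome 1 cluster. Its span of 35.3 kb (NCBI gene 16182), the shortest of the family, is annotated at 40465552 to 40500854. The region, at 40472400 to 40472850, lay 20.0% along the span, 6.62 kb downstream of the last of 3 RefSeq starts and 7.21 kb past the end of Il1rl1. Its nearest neighbours in the list, 27.7 kb before it and 57.1 kb after it, were both 143 bases wide. Of the 7225 genes of like span, 10.7% had a region inside.

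By the 100 kb rule Il18rap, the gene of the accessory chain of the IL-18 receptor, had the most regions of the family. It had 6, of which 5 were 143 bases and 1 was 451 bases wide. This rank depends on the distance. With a reach of 50 kb Il18r1 would keep all 5 of its regions. Il18rap would lose those at 65.5, 70.4 and 98.1 kb. Inside the span, Il1rl1 and Il18rap held 2 each. The span of Il18rap, 36.3 kb (NCBI gene 16174), is annotated at 40515362 to 40551707. Inside it lay 2 regions of 143 bases, 12.9 kb apart, the closest pair in the family. The first, at 40529688 to 40529830, was 14.4 kb downstream of the start and 39.6% along the span. The second, at 40542579 to 40542721, was 27.3 kb downstream and 75.1% along. A further 143-base region, at 40617146 to 40617288, was 65.5 kb past the end of Il18rap. It lay inside Slc9a4, which encodes a sodium-proton exchanger, and was the only region of the 8 whose nearest protein-coding gene was not a receptor gene. Of the 7150 genes of like span to Il18rap, 11.0% had a region inside and 1.19% had 2 or more.

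Il1rap, which encodes the accessory chain shared by the receptors for IL-1, IL-33 and IL-36, held a single 451-base region. At 149 kb it has the longest span of the family (NCBI gene 16180, 26581509 to 26730128 on chromosome 16). The region, at 26642910 to 26643360, lay 61.4 kb downstream of the RefSeq start and 41.5% along the span. The next listed regions were 202 kb before it and 259 kb after it, and so none of them lay within 100 kb of the gene. Of the 2815 genes of like span, 30.9% had a region inside, beside 10.2% of all protein-coding genes.

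**Figure D2:**
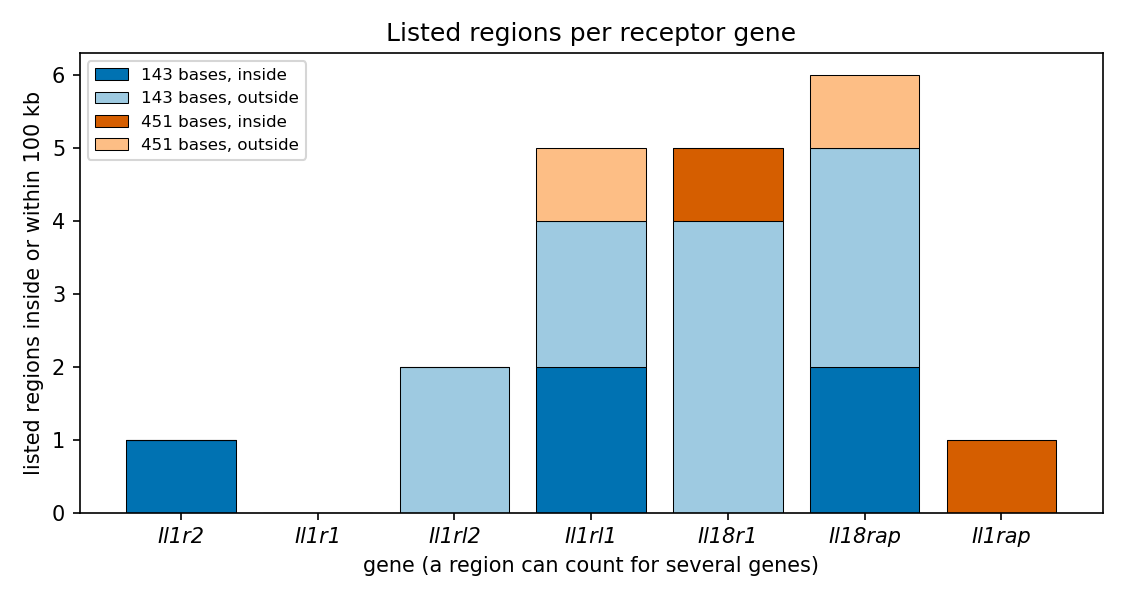
Number of listed regions inside each receptor gene or within 100 kb of it, by width and position; a region within reach of several genes is counted for each. Il1r1 has 0, Il1r2 and Il1rap have 1 each, Il1rl2 has 2, Il1rl1 and Il18r1 have 5 each and Il18rap has 6.

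Across the family, 6 of 7 genes had a region by the 100 kb rule, beside 42.7% of all protein-coding genes. Inside the span, 5 of 7 had a region, beside 10.2%, and 2 of 7 had 2 or more, beside 2.55%. With 5 or more regions by the 100 kb rule there were 3 of 7, Il1rl1, Il18r1 and Il18rap, beside 1.13%. The median over the 7 genes was 2 regions, and over all protein-coding genes it was 0. These genes are not independent items. The 8 regions made 20 pairs of a gene and a region, and each of the 2 regions inside Il1rl1 was within 100 kb of 4 members. The members are also longer than most genes, with spans of 35.3 to 149 kb beside a median of 17.2 kb over all protein-coding genes. Whether span length bears on these counts was not tested. The share of genes of like span with a region inside ran from 10.7% for Il18r1 to 30.9% for Il1rap. With 2 or more inside, it ran from 1.15% for Il18r1 to 10.2% for Il1rap. By the 100 kb rule, the share of genes of like span ran from 47.1% for Il18r1 to 59.7% for Il1rap.

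Seen as a locus, the chromosome 1 cluster ran for 467 kb from 40084692 to 40551707 and held 6 regions. That is 1.28 regions per 100 kb, beside 0.241 per 100 kb over the list as a whole. The latter was taken from the first to the last gene of each chromosome, with stretches between genes included, whereas the cluster begins and ends at a gene. Of windows of the same length laid from the start of each protein-coding gene, 2.01% held 6 or more regions. These windows overlap, and many hold the same regions. The regions were uneven along the cluster: 5 of the 6 lay within 125 kb, from Il1rl1 to Il18rap, at distances of 27.7, 27.7, 57.1 and 12.9 kb from each to the next. Adjacent centres under 100 kb apart made up 38.8% of all adjacent distances in the list.

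**Figure D3:**
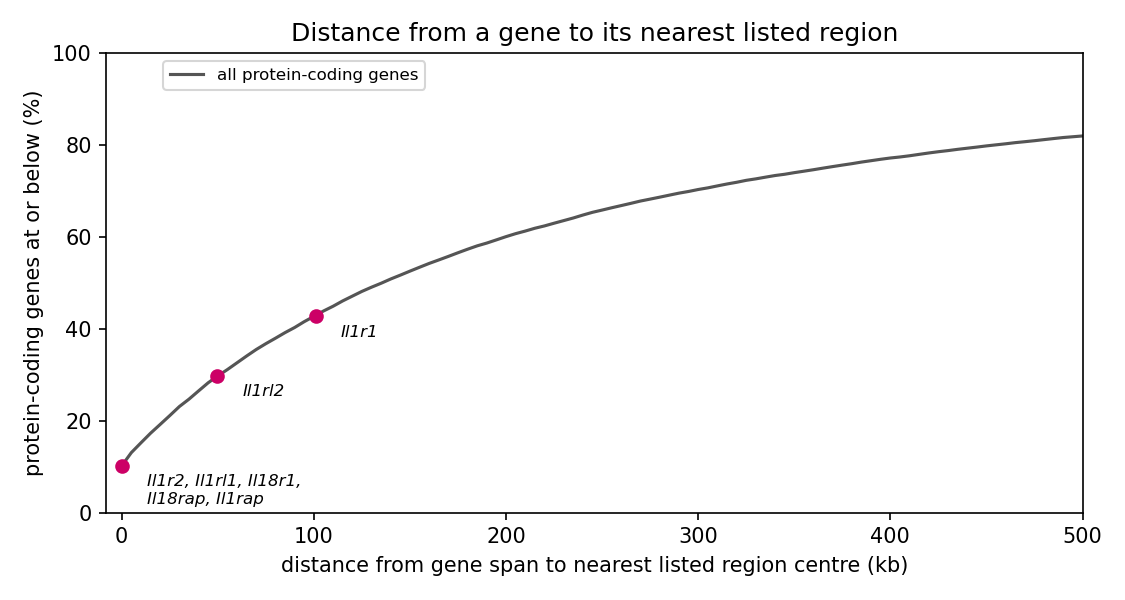
Share of all protein-coding genes (vertical axis, %) whose nearest listed region centre lies within a given distance of the gene span (horizontal axis, kb), with the 7 receptor genes marked on the curve. The 5 genes with a region inside sit at 0, Il1rl2 at 49.8 kb and Il1r1 at 101 kb, where 42.7% of genes have a region within 100 kb.

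Counted by region, the narrow class was the more frequent in the family. The list is made of 2 fixed widths, 143 and 451 bases, apart from 1 region of 235 bases, and no source used here says what a width stands for. Of the family's 8 regions, 6 (75.0%) were 143 bases and 2 (25.0%) were 451 bases wide, while in the list 49.4% were 143 and 50.6% were 451 bases wide. A 143-base region lay inside or within 100 kb of 5 of 7 members, beside 29.0% of all protein-coding genes, and a 451-base region at 4 of 7, beside 19.7%. Counts per gene share regions. The 451-base region inside Il18r1 counted for Il1rl1, Il18r1 and Il18rap, and the other only for Il1rap. Neighbouring regions under 100 kb apart had the same width in 73.0% of 2517 pairs over the list, and in 3 of 5 pairs that begin in the cluster. With 8 regions these shares are coarse, and a difference in width between the family and the list was not tested.

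Listed regions were also counted at the other genes of the IL-1 system. The list of 21 held ligands, antagonists, further receptors, adaptors and kinases, of which 20 had a match in the annotation. A region lay inside or within 100 kb of 10 of the 20, beside the 42.7% of all protein-coding genes, and inside 4, beside the 10.2%. Those 4 were Il1rn, the gene of the receptor antagonist, Irak2 and Irak4, kinases that act below the receptors, and the X-linked receptor gene Il1rapl2. The other 6 with a region within 100 kb held none inside. Among them were the IL-1 ligand genes Il1a and Il1b, with the nearest region 2.38 and 40.8 kb away, and Il18, the gene of the IL-18 receptor's ligand, at 77.9 kb. Il1f10, a further ligand gene, had its nearest at 42.6 kb. The nearest region was 9.16 kb from Tollip and 18.8 kb from Sigirr, genes of inhibitors of this signalling. The 10 with none within 100 kb included Myd88, the gene of the adaptor of the TIR domains, and Il33, the gene of the ST2 ligand, with the nearest region 524 and 654 kb away.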

How the data were processed

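ATAC-seq libraries came from 3 inflamed and 3 naive samples. The authors deposited a list of genomic regions with 3 columns, whose values are coordinates that name no library or group. The build was mm10, and BWA 0.7.17-r1188, HOMER 4.8, edgeR and SAMtools are named, per the submitters' processing notes. Their roles, thresholds and any pooling are not given in the sources used here, and a filter before deposit decides which regions could be listed. Depth is unknown.

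Starts, counted from 0 in the list, are printed from 1. Genes, spans and promoter windows came from RefSeq tables of GRCm38.p6, which has the same primary chromosomes as mm10, and 7 of 7 genes matched by symbol. The tables give spans without exons, so exons and introns were not told apart. Shares over 21887 protein-coding genes describe the list and are not tests, and the set of all accessible regions was not used here. The code was tested on simulated data. Python 3.11.15, pandas 2.3.3 and NumPy 2.4.6 were used. All 7 genes, their neighbours with a region, and the IL-1 system genes with a region inside were named by rule. Other IL-1 system genes were named after their values were seen. The genes and lists were chosen with earlier results of these data known. Alternatives were other distances, region classes, placement and merging.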

Additional observations from a re-analysis of the deposited data

How the results depend on the processing

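No paired analysis was possible because the deposited columns carry coordinates only, and for the same reason no library was left out in turn. The count of 8 regions was 7 with a reach of 50 kb, 10 with 200 kb, 7 inside the spans only, and 8 when any overlapping base counted or when regions up to 1 kb apart were merged. With the wider regions alone it was 2, and with the narrower alone 6, though 50.6% of the list was 451 and 49.4% was 143 bases wide. Of these counts, only that of the wider regions changed by more than a factor of 1.5. The count of 6 genes was 6 at 50 kb, beside 29.7% of all protein-coding genes, 7 at 200 kb, beside 60.0%, and 5 inside the span. It was 4 with the wider and 5 with the narrower regions. Of the reaches tried, only 200 kb gave Il1r1 a region, though its nearest lay just past the 100 kb limit, at 101 kb. The nearest gene was a receptor gene for 7 of 8 regions, also among all annotated genes or by gene end. The regions were chosen for lying in or near these genes, so this count follows largely from the rule.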
